A study of Mus musculus with 2 samples.

Results

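The actins and tropomyosins are the main structural proteins of the thin filament of muscle and of the microfilaments of other cells. The genes described are the 6 actin genes Actc1, Acta1, Acta2, Actg2, Actb and Actg1 and the 4 tropomyosin genes Tpm1, Tpm2, Tpm3 and Tpm4, taken by gene symbol. All 10 had a row among the 23276 genes of the deposited table. Ventricles came from mouse embryos in which Fendrr, a long non-coding RNA gene, was knocked out on both alleles by homologous recombination (KO) and from wild-type embryos (WT), both on the background C57BL/6 x 129SV and at stage E12.5. All embryos of both groups were produced from embryonic stem cells by tetraploid complementation, in which a tetraploid host embryo supports the stem cells that form the embryo proper. RNA of 4 pooled ventricles per genotype gave, after removal of ribosomal RNA, 1 strand-specific library each. The labels name no stem cell clone, and pooling left no spread between animals to measure.

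Actin monomers polymerise into filaments, and tropomyosin dimers lie along them and, with troponin, control the access of myosin. Mammals have separate actin genes for heart (Actc1), skeletal muscle (Acta1), vascular smooth muscle (Acta2), enteric smooth muscle (Actg2) and the cytoplasm of all cells (Actb and Actg1). In the embryonic heart Actc1 is the main sarcomeric actin, and Acta1 and Acta2 are also known to be expressed there. Tpm1 is the main tropomyosin of the mouse heart, Tpm2 is best known from skeletal and smooth muscle, and Tpm3 and Tpm4 give cytoplasmic forms in most cells. Each tropomyosin gene gives several proteins through alternative exons, which a value per gene does not separate.

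The actin genes encode nearly the same protein, and the isoforms are best known to differ at its start. The first 60 coding bases, read from GENCODE M21 transcripts (GRCm38, coding strand), are shown because they encode that stretch. Capitals mark the bases that differ from Actc1 when the whole coding sequences are aligned. In that alignment 3 bases of Actc1 are absent from this stretch of Actg2 and 6 from that of Actb and of Actg1, so that these lines run on to base 63 or 66 of Actc1 and do not line up letter by letter.
Actc1: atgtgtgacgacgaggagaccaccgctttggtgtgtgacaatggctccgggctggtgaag
Acta1: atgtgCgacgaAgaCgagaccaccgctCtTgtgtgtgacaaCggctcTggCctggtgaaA
Acta2: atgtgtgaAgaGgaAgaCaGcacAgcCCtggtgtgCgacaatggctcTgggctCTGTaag
Actg2: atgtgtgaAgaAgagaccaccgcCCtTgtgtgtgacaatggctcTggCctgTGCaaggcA
Actb: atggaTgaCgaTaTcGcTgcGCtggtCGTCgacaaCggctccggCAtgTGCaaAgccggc
Actg1: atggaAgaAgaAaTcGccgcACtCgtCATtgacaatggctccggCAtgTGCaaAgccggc
Leaving absent bases aside, 9 of these bases differed from Actc1 in Acta1, 11 in Actg2, 14 in Acta2, 17 in Actg1 and 19 in Actb. Over the whole coding sequence 86.2% of bases were identical between Acta1 and Actc1 and 82.5% between Acta2 and Actc1. The cytoplasmic genes Actb and Actg1 shared 88.7%.

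Likeness of this degree matters for a table made from single reads of 100 bases, so every 100-base window of each gene's longest coding transcript was searched in the transcripts of all other genes. No window of any of the 10 genes occurred in another of the 10, either exactly or with up to 2 mismatches. For Actc1, Acta1, Acta2, Actg2, Tpm1 and Tpm2 no window was shared with any other annotated transcript. Copies outside the 10 genes did share windows with the cytoplasmic members. For Actg1 51.1% of windows matched another transcript exactly and 55.5% with up to 2 mismatches, among them 42.4% that matched the pseudogene Actg-ps1. For Tpm3 the shares were 45.7% and 70.5%, and every window of the wider count matched the retrocopy Tpm3-rs7. For Tpm4 they were 7.64% and 16.5%. For Actb they were 1.10% and 12.9%, and 12.2% of its windows matched transcripts of Lrrc58. None of 6 actin and tropomyosin pseudogenes known by symbol had a row in the table. How reads that fit several places were assigned was not given in the sources used here, so the levels of Actg1 and Tpm3, and to a lesser degree of Tpm4 and Actb, are uncertain.

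**Figure D1:**
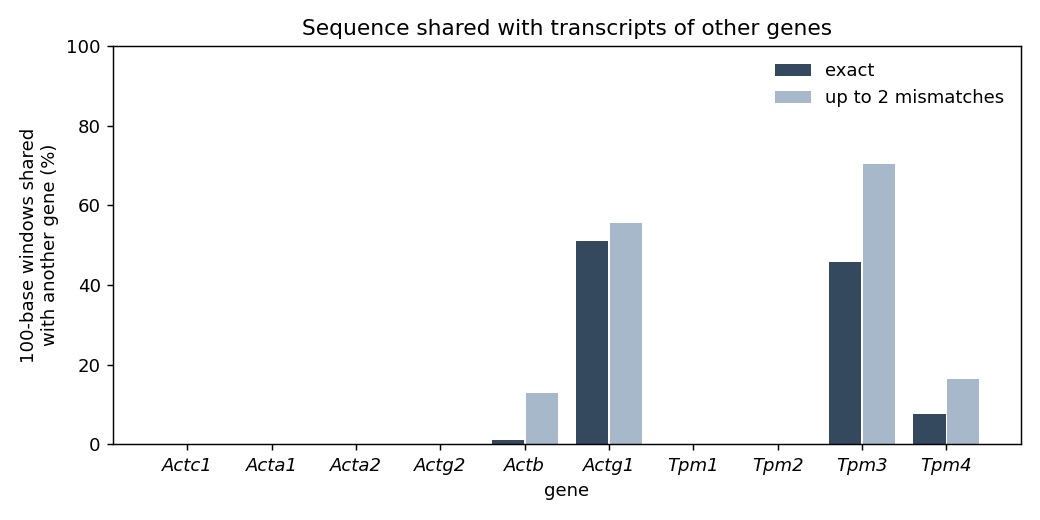
Percentage of the 100-base windows of each gene's transcript (vertical axis) that occur in an annotated transcript of another gene, exactly (dark bars) or with up to 2 mismatches (light bars). Actg1 (51.1% exact) and Tpm3 (45.7% exact) stand highest, and 6 of the 10 genes have no shared window.

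Levels are given as deposited in FPKM, a fragment count scaled by transcript length and by library size, so that levels of different genes can be compared. Ratios are log2((KO + 1)/(WT + 1)), a scale that understates differences of low genes. Each genotype has a single library, so no difference could be checked against replicates, no p-value can be given, and "higher" and "lower" refer to these libraries alone. The libraries were sequenced on separate runs, the WT run having been stopped early and its bases called by hand, so that run and genotype cannot be told apart. The depth per library is unknown. The steps between low values give the KO library 1.26-fold the mapped reads of WT, provided that FPKM was computed over the whole mapped library. A mean of 1 FPKM or more over the libraries was reached by 11349 genes, all 10 members among them, and their median log2 ratio was -0.11. The targeted gene gave no check, since Fendrr had no row and 1110050K14Rik, the symbol it once had, stood at 0 in KO and in WT. Cardiomyocyte markers were abundant, with Myl2 at 9478 FPKM in KO and 9103 FPKM in WT.

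The actin and tropomyosin make-up of the ventricle was much the same in the KO library as in the WT library. The same gene led each family, Actc1 among the actins and Tpm1 among the tropomyosins, and the order of levels within each family was identical in the libraries. Across the families Acta1 was above Tpm3 in KO and below it in WT. None of the 10 genes was at least 2-fold higher or lower in KO, where 0.855% of all genes passed this limit, 0.467% upwards and 0.388% downwards. None was 1.5-fold apart either on the log2(FPKM + 1) scale, a limit passed by 5.14% of all genes, 1.54% upwards and 3.6% downwards, so that a count of 0 among 10 genes is near the background. Without the added 1 the FPKM ratio of Actg2 was 1.69, which is past 1.5-fold, as were its log2 ratios of 0.72 with a pseudocount of 0.1, 0.60 with median centring and 0.59 with equal totals. The median log2 ratio of the 10 genes was 0.019, against -0.11 for all genes, and 7 of the 10 lay above the median of all genes. In bulk tissue fewer cells of a type and less RNA per cell cannot be told apart.

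**Figure D2:**
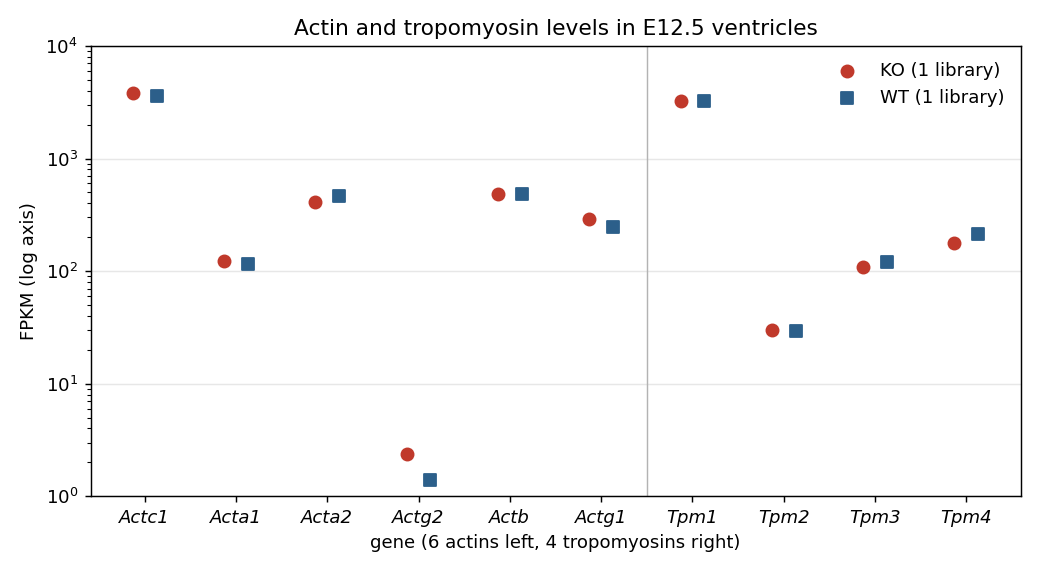
Level of each gene in FPKM (vertical log axis) in the KO library (circles) and the WT library (squares), 1 point per library. Actc1 and Tpm1 stand apart at the top, from 3224 to 3857 FPKM, and Actg2, at 2.36 FPKM in KO and 1.39 FPKM in WT, lies far below all others.

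The striated muscle actins were slightly higher in the KO library, and by the same proportion. Actc1, the cardiac sarcomeric actin, was at 3857 FPKM in KO and 3605 FPKM in WT, a log2 ratio of 0.10. It ranked number 2 of all genes in KO and number 3 in WT. Acta1, the skeletal muscle actin, which embryonic and stressed heart muscle also expresses, was at 121.96 FPKM in KO and 114 FPKM in WT (log2 ratio 0.09). The level of Actc1 was therefore 31.6 times that of Acta1 in KO and 31.5 times in WT. This ratio is formed within a library and does not depend on the scaling between libraries. For Actc1, 72.4% of all genes were further from a log2 ratio of 0. Its signed ratio lay at percentile 79.5 of all genes, whose median was below 0.

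The smooth muscle actins went opposite ways, at very different levels. Acta2, the vascular smooth muscle actin, which immature cardiomyocytes also express, was at 409 FPKM in KO and 467 FPKM in WT, a log2 ratio of -0.19. Actg2, the enteric smooth muscle actin, was at 2.36 FPKM in KO and 1.39 FPKM in WT. Its log2 ratio of 0.49 was the furthest from 0 of the 10 genes, and 9.31% of all genes were further from 0. By signed log2 ratio Actg2 lay at percentile 97.6 of all genes, at a level close to the minimum mean of 1 FPKM. The size of its log2 ratio depends on the pseudocount, being 0.72 with 0.1 FPKM and 0.20 with 5 FPKM, where Tpm4 (-0.26) and Actg1 (0.21) were further from 0. Acta2 was 173 times as high as Actg2 in KO and 335 times in WT. Other smooth muscle genes were on both sides too. Cnn1, which encodes calponin, was at 115 FPKM in KO and 149 FPKM in WT. Tagln, which encodes transgelin, was at 131 FPKM in KO and 120.4 FPKM in WT. Synpo2 was at 4.17 FPKM in KO and 2.79 FPKM in WT, a log2 ratio of 0.45. Myh11, the smooth muscle myosin heavy chain and the defining marker of mature smooth muscle, was near 0, at 0.332 FPKM in KO and 0.301 FPKM in WT. The 8 smooth muscle markers summed to 502 FPKM in KO and 555 FPKM in WT, most of it Des and Cnn1. Des was at 245 FPKM in KO and 275 FPKM in WT. The sum was lower in KO although 5 of the 8 markers were higher there. Of the 6 with a mean of at least 1 FPKM, 4 lay above the median of all genes. Their part in the Acta2 value was not tested.

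The cytoplasmic actins differed in how close they were. Actb, beta-actin, was at 488 FPKM in KO and 483 FPKM in WT, a log2 ratio of 0.01, and 96.2% of all genes were further from 0. Actg1, gamma-actin, was at 288 FPKM in KO and 247 FPKM in WT, a log2 ratio of 0.22. Actb was thus 1.70 times as high as Actg1 in KO and 1.95 times in WT. By signed log2 ratio, Actb lay at percentile 68.9 of all genes and Actg1 at percentile 89.3. The copies of Actg1 described above share more of its windows than is the case for Actb, and what they add to either value was not tested.

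Each actin's share of the summed FPKM of the 6 genes shows the same make-up without the scaling between libraries. Actc1 made up 74.7% in KO and 73.3% in WT, a difference of 1.36 percentage points. Acta2 made up 7.91% in KO and 9.49% in WT, the largest difference among the 6 shares at -1.58 points. Actb made up 9.44% in KO and 9.82% in WT, Actg1 5.57% in KO and 5.03% in WT, and Acta1 2.36% in KO and 2.33% in WT. Actg2 made up 0.0457% in KO and 0.0284% in WT. Grouped by class, the 4 muscle actins held 84.99% in KO and 85.2% in WT, and the cytoplasmic pair 15.0% in KO and 14.8% in WT. Within the muscle actins Actc1 was at 9.44 times Acta2 in KO and 7.72 times in WT, and Acta1 at 0.298 times Acta2 in KO and 0.245 times in WT.

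**Figure D3:**
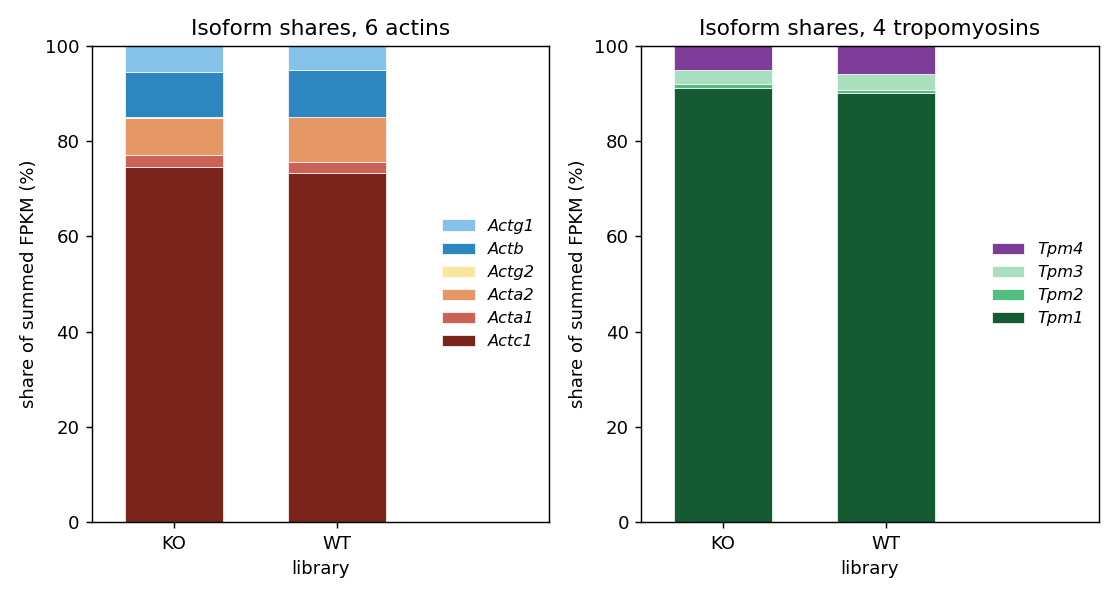
Share of each gene in the summed FPKM of the 6 actins (left panel) and of the 4 tropomyosins (right panel), in percent, with the KO bar left of the WT bar. Actc1 takes 74.7% in KO and 73.3% in WT, and Tpm1 takes 91.1% in KO and 90.0% in WT.

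Tropomyosin was dominated by Tpm1 in both libraries. Tpm1, the alpha-tropomyosin of cardiac muscle, was at 3224 FPKM in KO and 3267 FPKM in WT, a log2 ratio of -0.02. It made up 91.1% of the summed tropomyosin FPKM in KO and 90.0% in WT. GENCODE M21 lists 21 Tpm1 transcripts, and the deposited values of Tpm1 and Tpm3 carry up to 10 significant digits where those of the other 8 genes carry up to 6, as would a sum over entries. Such longer values were found for 12.1% of the genes in the table. Which transcripts of Tpm1 made up its level was not given in the table.

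The minor tropomyosins did not all go the same way. Tpm2, beta-tropomyosin, was at 29.9996 FPKM in KO and 29.5 FPKM in WT, a log2 ratio of 0.02. Tpm3, gamma-tropomyosin, was at 108 FPKM in KO and 119.7 FPKM in WT (log2 ratio -0.14). Tpm4, a mainly cytoplasmic tropomyosin, was at 176 FPKM in KO and 212 FPKM in WT. Its log2 ratio of -0.27 was the lowest of the 10 genes and lay at percentile 25.9 of all genes, well inside their spread. In shares, Tpm4 held 4.99% in KO and 5.86% in WT, Tpm3 3.06% in KO and 3.30% in WT, and Tpm2 0.848% in KO and 0.813% in WT. Tpm1 was 18.3 times as high as Tpm4 in KO and 15.4 times in WT.

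Set against each other, the summed actins were at 5165 FPKM in KO and 4918 FPKM in WT, and the summed tropomyosins at 3539 FPKM in KO and 3628 FPKM in WT. The ratio of actin to tropomyosin was thus 1.46 in KO and 1.36 in WT. For the sarcomeric pair alone, Actc1 over Tpm1 was 1.20 in KO and 1.10 in WT. Together the 10 genes held 2.59% of the summed FPKM of the table in KO and 2.32% in WT.

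The direction of the small differences depends in part on the scaling. As deposited, 6 of the 10 genes were higher in KO (Actc1, Acta1, Actg2, Actb, Actg1 and Tpm2) and 4 were lower. Under 5 other scalings of the libraries these 6 were also higher, and Acta2 and Tpm4 were lower in each. Tpm1 was higher in KO under all 5 scalings, and Tpm3 under quantile normalization and equal totals. Among the 525 genes whose mean reached 100 FPKM, the median log2 ratio was -0.18 and 95% lay between -0.76 and 0.52. The 8 members at that level lay between -0.27 and 0.22, so that each was inside the spread of genes of like abundance.

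**Figure D4:**
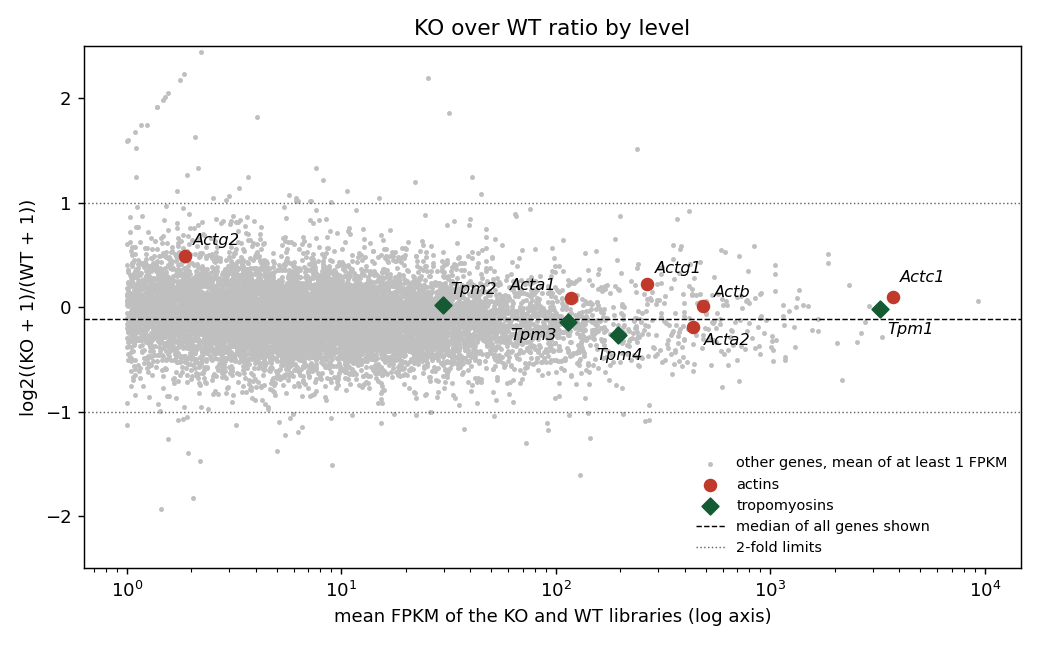
Log2 ratio of KO over WT (vertical axis, FPKM with 1 added) against the mean FPKM of the libraries (horizontal log axis) for 11349 genes, with actins as circles and tropomyosins as diamonds. The dashed line is the median of all genes (-0.11), the dotted lines are the 2-fold limits, and 18 genes lie outside the plotted range; all 10 members lie between -0.27 and 0.49.

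The proteins that act on these filaments were examined as lists of genes. Of 26 genes that regulate the thin filament or cap its ends, 19 reached a mean of 1 FPKM, and 6 of these exceeded the median of all genes and 13 were below it. The list's median log2 ratio was -0.17, against -0.11 for all genes, and none was 2-fold apart. Both the highest and the lowest ratio of the list belonged to troponin genes, whose products sit on tropomyosin. Tnnt2, the cardiac troponin T that binds tropomyosin, was at 2174 FPKM in KO and 1524 FPKM in WT. Tnnc1, the calcium-binding troponin C, was at 847 FPKM in KO and 1209 FPKM in WT. The inhibitory subunit genes Tnni1 and Tnni3 were also lower in KO, Tnni1 at 516 FPKM in KO and 760.3 FPKM in WT and Tnni3 at 443 FPKM in KO and 753 FPKM in WT. The log2 ratios of these 4 genes ran from -0.77 for Tnni3 to 0.51 for Tnnt2. The other troponin genes that reached 1 FPKM lay nearer to 0, Tnnt1 at -0.17, Tnni2 at 0.02 and Tnnt3 at 0.20.

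Genes of actin turnover and nucleation lay around the median of all genes. Of 32 listed genes 30 reached a mean of 1 FPKM, 14 of them above that median and 16 below it, and the list's median was -0.13. Tmsb4x, which encodes the monomer-binding thymosin beta 4, was at 948 FPKM in KO and 863 FPKM in WT. Dstn, the depolymerising factor destrin, was at 506 FPKM in KO and 676 FPKM in WT. Of the genes with the furthest ratios, Twf2 (twinfilin) was at 8.32 FPKM in KO and 12.99 FPKM in WT, and Arpc4, a subunit of the Arp2/3 complex, at 20.2 FPKM in KO and 29.8 FPKM in WT.

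Cytoplasmic myosins and cross-linkers of actin behaved likewise. Of 24 listed genes 23 reached a mean of 1 FPKM, 12 of them above the median of all genes and 11 below it, and the list's median was -0.09. The light chain genes Myl6 and Myl9 were the most abundant, Myl6 at 908 FPKM in KO and 1139 FPKM in WT and Myl9 at 804 FPKM in KO and 782 FPKM in WT. Cnn2, a non-muscle calponin, was at 49.7 FPKM in KO and 73.5 FPKM in WT, and Zyx, the focal adhesion protein zyxin, at 10.8 FPKM in KO and 14.5 FPKM in WT.

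**Figure D5:**
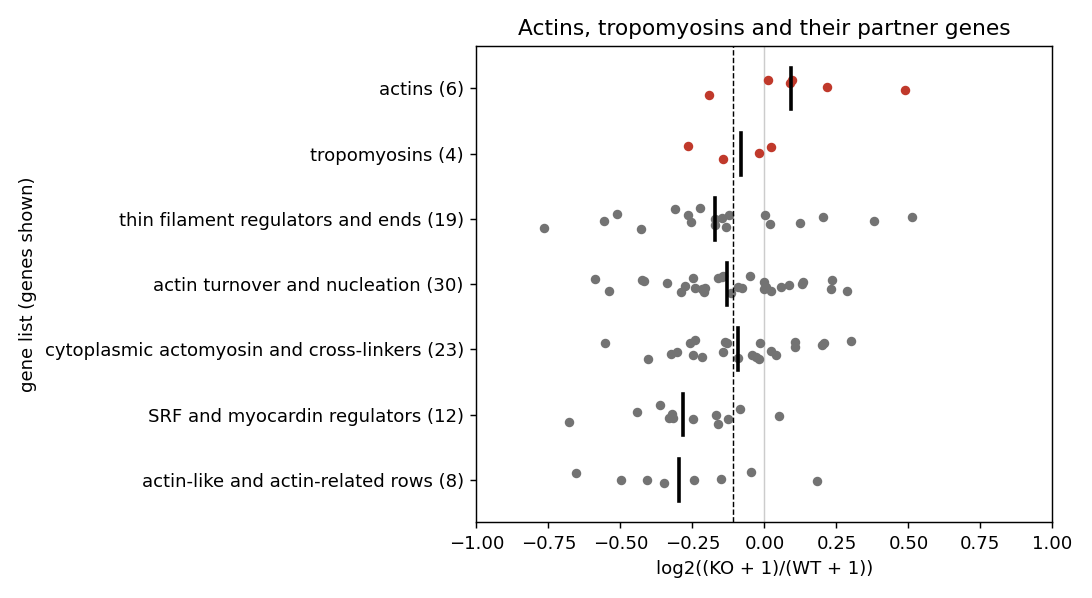
Log2 ratio of KO over WT (horizontal axis, FPKM with 1 added) for each actin and tropomyosin (upper rows) and for each gene of 5 partner lists with a mean of at least 1 FPKM, 1 point per gene, with the list median as a vertical bar. The dashed line is the median of all genes (-0.11); the actins have a median of 0.09 and the SRF and myocardin list one of -0.28.

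Transcription factors and cofactors that regulate muscle actin genes or other heart muscle genes were mostly lower in the KO library. Of 13 listed genes 12 reached a mean of 1 FPKM, 2 of them above the median of all genes and 10 below it, and the list's median was -0.28. None was 2-fold apart. Myocd, the cardiac and smooth muscle coactivator of serum response factor (SRF), was at 6.36 FPKM in KO and 10.8 FPKM in WT. Fhl2, a cofactor of SRF, was at 50.2 FPKM in KO and 68.6 FPKM in WT, and the homeodomain-only gene Hopx at 53.3 FPKM in KO and 67.4 FPKM in WT. Srf itself was at 12.2 FPKM in KO and 15.5 FPKM in WT, a value named after it was seen.

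SRF binds the CArG box, which consists of 2 C, 6 bases that are A or T and 2 G and reads as a CArG box on either strand. Promoter windows from 250 bases before to 50 bases after the annotated start were taken from RefSeq on GRCm38.p6, and 8 of the 10 genes had one. Of all 27025 genes with a window, 1.81% had an exact CArG box in any window, as did 1.63% of all 32851 windows. Among the 8 genes it was found in 3, Actc1, Acta1 and Actg1. They are shown because Actc1 and Acta1 kept their ratio to each other, and Actg1 is the cytoplasmic counterpart. Capitals mark the CArG box. The windows are chr2:114052826-114053125 for Actc1, chr8:123894726-123895025 for Acta1 and chr11:120348446-120348745 for Actg1, all on the minus strand.
Actc1 promoter: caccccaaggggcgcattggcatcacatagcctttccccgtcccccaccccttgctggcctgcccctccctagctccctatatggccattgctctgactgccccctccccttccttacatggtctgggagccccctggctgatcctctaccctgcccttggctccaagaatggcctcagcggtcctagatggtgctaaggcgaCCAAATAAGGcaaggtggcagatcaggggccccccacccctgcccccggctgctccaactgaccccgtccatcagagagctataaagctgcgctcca
Acta1 promoter: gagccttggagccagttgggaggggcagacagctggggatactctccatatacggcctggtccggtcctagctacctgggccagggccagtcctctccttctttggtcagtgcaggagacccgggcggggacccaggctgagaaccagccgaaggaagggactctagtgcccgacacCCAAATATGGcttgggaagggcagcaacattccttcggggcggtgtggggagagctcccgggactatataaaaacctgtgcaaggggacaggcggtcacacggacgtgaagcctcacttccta
Actg1 promoter: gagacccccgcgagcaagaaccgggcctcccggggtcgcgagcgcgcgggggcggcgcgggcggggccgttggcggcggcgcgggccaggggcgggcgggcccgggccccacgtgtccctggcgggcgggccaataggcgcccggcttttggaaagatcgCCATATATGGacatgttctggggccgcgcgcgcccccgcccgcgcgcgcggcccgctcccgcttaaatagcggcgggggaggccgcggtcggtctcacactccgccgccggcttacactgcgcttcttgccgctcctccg
The first base of the box was at -47 from the annotated start in Actc1, at -73 in Acta1 and at -90 in Actg1. The windows of Acta2, Tpm1, Tpm2, Tpm3 and Tpm4 held no exact match, and Actb and Actg2 had no entry. Sequences close to the pattern were not counted, such as ccctatatgg and ccttgtttgg in the Acta2 window. The letters ccctatatgg also stand in the Actc1 window, so they do not set Acta2 apart from it. The lack of an exact match therefore does not show that a gene lacks an SRF site. A match in letters is a description of the sequence and not evidence of binding. The 3 genes with a box had log2 ratios of 0.10, 0.09 and 0.22. Without an exact match, Acta2 was at -0.19, Tpm1 at -0.02, Tpm2 at 0.02, Tpm3 at -0.14 and Tpm4 at -0.27. The levels of Actg1 and Tpm3, and to a lesser degree of Tpm4, are uncertain because of the shared windows described above. Whether the box bears on the ratios was not tested.

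Markers of other tissues and cell types were read beside these levels. Of 12 skeletal muscle genes, Myf5, Myf6 and Pax7 were listed at 0 in both libraries, and the 12 summed to 55.9 FPKM in KO and 56.3 FPKM in WT, most of it Tnni2. The 12 cardiomyocyte markers summed to 22808 FPKM in KO and 23518 FPKM in WT, with 5 of them above the median of all genes and 7 below it. Of 10 fibroblast and cushion mesenchyme genes, whose cells also express cytoplasmic actins, 8 lay above that median. The median log2 ratio of these 10 genes was 0.20. They summed to 1577 FPKM in KO and 1547 FPKM in WT, most of it Vim, at 918 FPKM in KO and 999.98 FPKM in WT. Vim and Dcn were lower in KO and the other 8 higher. Among these, Postn was at 224 FPKM in KO and 163 FPKM in WT, and Tcf21 at 19.0 FPKM in KO and 13.3 FPKM in WT. Of 9 endothelial and endocardial genes 8 lay above the median of all genes, with a sum of 248 FPKM in KO and 240 FPKM in WT. Afp, a gene of liver and yolk sac, was at 16.6 FPKM in KO and 0.110 FPKM in WT. The 8 liver and yolk sac markers summed to 21.8 FPKM in KO and 0.832 FPKM in WT, 7 of them higher in KO and Alb listed at 0 in both. The 9 erythroid genes summed to 3361 FPKM in KO and 3284 FPKM in WT, the 6 epicardial genes to 69.9 FPKM in KO and 66.3 FPKM in WT, and the 7 leukocyte genes to 16.1 FPKM in KO and 10.4 FPKM in WT. The part of these cell types in the actin and tropomyosin values was not tested.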

How the data were processed

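Per the labels' protocols, 500 ng of total RNA from 4 pooled ventricles per genotype was depleted of ribosomal RNA, amplified by 15 PCR cycles and sequenced as single reads of 100 bases, 1 library per genotype. The authors deposited 1 FPKM value per gene symbol and library. TopHat2 2.0.6, Bowtie2 2.0.2, Cufflinks 2.0.2 and build mm9 are named in the submitters' processing notes. Annotation, options and the handling of reads with several matches were not given in the sources used.

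Ratios were log2((KO + 1)/(WT + 1)) for genes reaching a mean of 1 FPKM, with a limit of 2-fold. The calculation was tested on simulated data with planted changes larger than the difference of any of the 10 genes. That test therefore does not bear on differences of their size. Sequences came from GENCODE M21 transcripts and RefSeq promoters on GRCm38, a build other than that of the values, and the promoter coordinates are those of GRCm38.p6. Relative depth came from 2213 genes under 0.3 FPKM, where 69.3% of the KO to WT ratios, divided by 0.796, came within 0.1% of a fraction whose terms are whole numbers from 1 to 10. Named genes were the 10 members and, per list, the 2 highest and the 2 furthest in ratio; not every gene so chosen is printed, and Tagln, Myh11, Srf, Myf5, Myf6, Pax7, Alb, Actl6b and Actbl2 were named after their values were seen. With 2 libraries, no likeness between gene patterns was ranked. The members and lists were chosen with earlier results of these data known. Python 3.11.15, numpy 2.4.6, pandas 2.3.3 and matplotlib 3.10.9 were used.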

Additional observations from a re-analysis of the deposited data

How the results depend on the processing

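No paired analysis was possible because KO and WT have a single library each, and leaving a library out was not possible either. The count of members past the fold limit was 0 under all 10 alternatives of pseudocount, scaling, filter and limit. The median log2 ratio of the members, 0.019 as deposited, was 0.13 with median centring, 0.15 with upper-quartile scaling, 0.14 with trimmed-mean scaling, 0.13 with quantile normalization, 0.16 with equal totals after leaving out haemoglobin and the 20 most abundant genes, and 0.014 at a minimum mean of 5 FPKM, which leaves out Actg2. The median of all genes is 0 with centring by construction, so the shift of the members follows from the scaling. Among the 5 actins left when Actc1 is taken out of the sum, the share in KO minus that in WT was 0.601 percentage points for Acta1, -4.32 for Acta2, 0.0740 for Actg2, 0.482 for Actb and 3.16 for Actg1. Without Tpm1 it was 1.38 points for Tpm2, 1.29 for Tpm3 and -2.66 for Tpm4. Actb and Tpm3 thereby turned from a lower to a higher share in KO, the gene taken out having the larger share in KO in each family. The planned sums with pseudogenes gave no value, because none of those symbols had a row. The search for shared windows with up to 2 mismatches was chosen after seeing the data. The log2 ratio of Actg2 was 0.72 when 0.1 FPKM was added and 0.20 when 5 FPKM was added. Depth is unknown, so no counting error is given.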

Other observations

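Actin-like and actin-related proteins share the actin fold, and several of them serve in chromatin remodelling or on dynactin. Their genes had 16 rows. Of these, 8 were listed at 0 in both libraries, among them Actl6b, the neuronal subunit of the BAF chromatin remodelling complex, and Actbl2. The other 8 had a mean of at least 1 FPKM, of which 2 exceeded the median of all genes and 6 were below it. The list's median log2 ratio was -0.30, against -0.11 for all genes. The dynactin subunit genes Actr1a and Actr1b stood on opposite sides, Actr1a at 41.5 FPKM in KO and 49.3 FPKM in WT and Actr1b at 34.4 FPKM in KO and 30.2 FPKM in WT. Actr3b was at 3.98 FPKM in KO and 6.83 FPKM in WT, and Actr5, a subunit of the INO80 remodelling complex, at 2.12 FPKM in KO and 3.41 FPKM in WT. None was 2-fold apart, and no value has a replicate check.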
